A study of Rattus norvegicus with 10 samples.

Results

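The D cyclins, the kinases CDK4 and CDK6 and the CDK inhibitors were followed in rat tendon-derived stem cells (TDSCs) by RNA sequencing. The members were chosen by gene symbol: Ccnd1, Ccnd2, Ccnd3, Cdk4, Cdk6, Cdkn1a, Cdkn1b, Cdkn1c, Cdkn2a and Cdkn2b. All 10 were found among the 23051 genes of the table, and all 10 passed the filter on low counts. One group of 5 libraries was under osteogenic induction with farnesol at 50 µM, an isoprenoid alcohol, and the other group of 5, the control, was under osteogenic induction alone; all were taken on day 3. Controls are titled as not treated but carry library names spelled Vechile, which leaves unclear what solvent, if any, they received. The labels give TDSCs as the cell line, name no animal, sex or passage, and do not say whether the numbered biological replicates came from separate cultures, and the p-values may therefore rest on technical spread alone.

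D cyclins are the cyclins that growth signals switch on early in the cell cycle. They bind CDK4 or CDK6, and the active kinase phosphorylates the retinoblastoma protein, which releases E2F factors and lets the cell begin DNA synthesis. The INK4 inhibitors, encoded by Cdkn2a and Cdkn2b among others, bind CDK4 and CDK6 themselves, whereas the CIP/KIP inhibitors p21, p27 and p57 (Cdkn1a, Cdkn1b and Cdkn1c) bind complexes of cyclin and kinase. Stromal progenitors leave the cell cycle as they turn towards bone, and these inhibitors are well known for their part in that exit and in senescence.

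With farnesol, 7 of the 10 members rose, 2 fell and Cdk6 did not pass (edgeR's quasi-likelihood test, Benjamini-Hochberg adjusted p under 0.05). The rises included the most abundant D cyclin, Ccnd1, at 1.60-fold, and the INK4 inhibitor Cdkn2b at 1.91-fold. The falls were those of Ccnd2, at 1.21-fold, and Cdkn1b, at 1.20-fold. Across all 12893 tested genes 59.5% were called, with 29.4% higher and 30.1% lower, so a call is itself common in this comparison. The median log2 fold change was 0.40 over the members and 0.01 over all tested genes. In 6 members every farnesol library lay above every control library, and in 1, Cdkn1b, every farnesol library lay below; over all tested genes these shares were 19.8% and 20.9%.

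The libraries held 41843213 to 47105738 counts, so a count of 0 would allow up to 3 counts, or 0.064 to 0.072 CPM (counts scaled to library size), by counting error only. Libraries of 1 group differed along a common direction, here called the library axis, which held 36.8% of the variance within groups. Scores on it ran from -0.074 (replicate 3) to 59.9 (replicate 5) in farnesol libraries, and from -40.3 (replicate 1) to 4.06 (replicate 3) in control libraries. Shorter genes tended to be higher and longer genes lower in libraries far along it. The median log2 fold change, farnesol over control, was 0.28 in genes of up to 1811 bases and -0.28 in genes of at least 5092 bases. The labels give no batch that matches this axis, and since farnesol libraries lay further along it, a farnesol effect and the axis can be told apart only in part. Values below come from the fit with group alone. Beside them stand fits that add each library's axis score (the axis covariate) or the slope of its values on gene length (the slope covariate). Since the axis was taken from the same expression values, its covariate narrows the spread within groups by construction, and its p-values may be too small. With the axis and the slope covariate 20.6% and 7.57% of all genes were called, and of the members 4 (Ccnd1, Cdk4, Cdkn2a and Cdkn2b) and 2 (Ccnd1 and Cdkn2b), all of them higher. With a smooth trend on gene length removed from each library instead, 56.6% of all genes and 8 members were called, 7 higher and 1 lower.

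Of 12 markers of tendon and mesenchymal stromal cells 1 rose and 6 fell, with a sum of 32076 to 34966 CPM in farnesol and 34833 to 36329 CPM in control, and Tnmd had at most 1 count in any library. Col1a1 was at 15729 ± 687 CPM in farnesol and 15023 ± 472 CPM in control, and Thy1 at 5201 ± 772 CPM and 4496 ± 399 CPM (mean ± SD, n = 5 each), while the tendon factor Scx was at 21.4 ± 4.34 CPM and 35.3 ± 4.35 CPM. Summed markers of endothelial cells reached 0.822 CPM in farnesol and 0.890 CPM in control, with Cdh5, Kdr, Tie1 and Cldn5 at no more than 3 counts, and those of macrophages and leukocytes 3.89 and 2.46 CPM, with Ptprc, Adgre1 and Cd3e at no more than 3 counts. Summed markers of epithelial cells and of skeletal muscle reached no more than 3.14 CPM in any library. Of 8 mural cell markers 3 fell and Rgs5 and Kcnj8 had at most 3 counts; the sum was 4680 to 5613 CPM in farnesol and 7700 to 8579 CPM in control. Of 5 Schwann cell markers Sox10 had at most 3 counts, and the sum, mostly S100b, was 442 to 520 CPM in farnesol and 289 to 344 CPM in control. The part of the mural and Schwann cell genes in the results below was not tested, and in bulk RNA fewer cells of a type and less RNA per cell cannot be told apart.

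Per gene length, in the authors' FPKM (counted fragments scaled by gene length and library depth), the members spanned a wide range. Ccnd1 was the highest in both groups, at 284 ± 31.7 FPKM in farnesol and 176 ± 5.16 FPKM in control, above 98.4% and 97.6% of tested genes. Cdkn1a followed with 166 ± 20.8 FPKM in farnesol and 126 ± 11.7 FPKM in control, and Ccnd3 with 70.9 ± 6.84 FPKM and 56.6 ± 4.41 FPKM. These 3 ranks were clear in both groups, with no overlap between neighbours over the 5 libraries. At the other end stood Cdk6, at 2.86 ± 0.274 FPKM in farnesol and 2.45 ± 0.373 FPKM in control, and Cdkn1c, at 1.75 ± 0.289 FPKM and 1.03 ± 0.191 FPKM.

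The order changed in the middle. In farnesol libraries Cdkn2b (36.6 ± 1.02 FPKM), Ccnd2 (36.0 ± 4.81 FPKM), Cdk4 (34.8 ± 2.71 FPKM), Cdkn2a (26.6 ± 3.35 FPKM) and Cdkn1b (23.6 ± 3.01 FPKM) followed each other with each range overlapping the next. In control libraries the order was Ccnd2 (42.9 ± 3.41 FPKM), Cdkn1b (28.0 ± 1.23 FPKM), Cdk4 (26.1 ± 1.21 FPKM), Cdkn2b (18.9 ± 1.45 FPKM) and Cdkn2a (16.1 ± 1.58 FPKM), where Cdkn1b overlapped Cdk4 and Cdkn2b overlapped Cdkn2a. Cdkn2b thus stood at rank 4 in farnesol and at rank 7 in control, but without farnesol replicate 5 it changed places with Ccnd2.

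**Figure D1:**
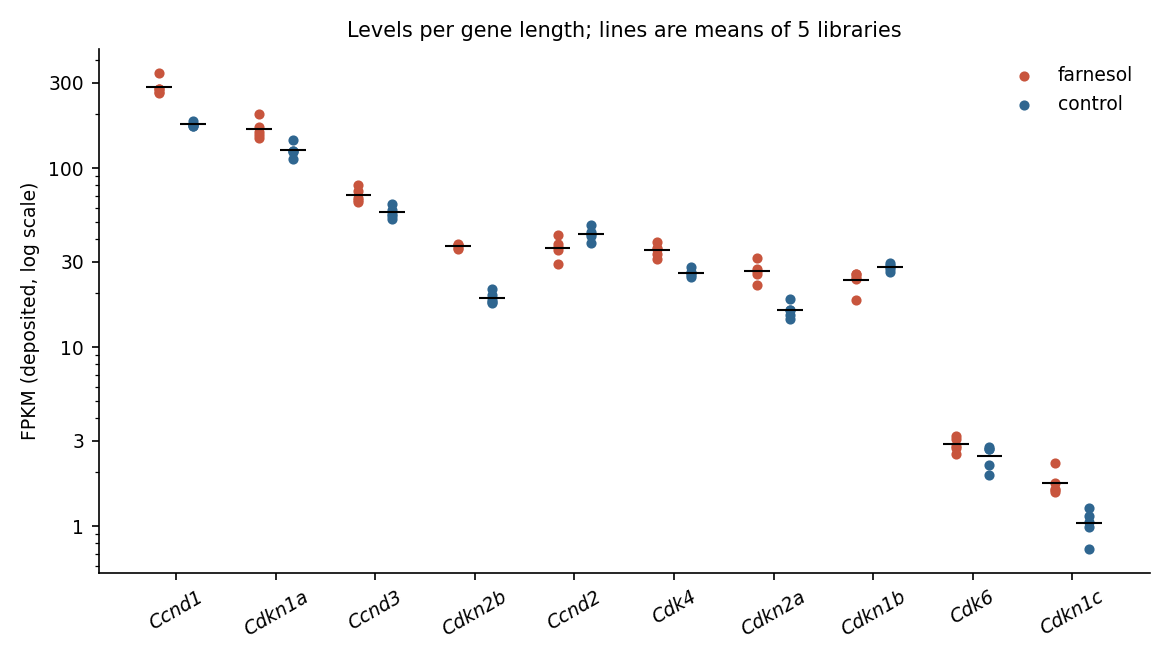
Deposited FPKM (log scale) of the 10 members in each farnesol library (left of each pair) and each control library (right); lines are means of 5 libraries. Ccnd1 and Cdkn1a lead in both groups, and Cdkn2b is at 36.6 FPKM in farnesol and 18.9 FPKM in control.

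Of the D cyclins, Ccnd1 encodes cyclin D1, the member of the family most responsive to mitogens (chromosome 1, 200089002 to 200098602, minus strand, build rn7 per the submitters' processing notes). It had 607, 600, 569, 582 and 768 CPM in farnesol replicates 1 to 5, against 410, 392, 385, 385 and 380 CPM in control replicates 1 to 5. Every farnesol library was above every control library, and farnesol replicate 5 stood above the other 4. Farnesol over control, the log2 fold change was 0.68 (edgeR, adjusted p = 2.42e-05, SE 0.08), and it was 0.60 (SE 0.04) without farnesol replicate 5. It was 0.48 (SE 0.08, adjusted p = 0.00174) under the axis covariate and 0.47 (SE 0.10, adjusted p = 0.00229) under the slope covariate, so the rise passed in each of these fits.

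Ccnd2, which encodes cyclin D2 (chromosome 4, 159962363 to 159989495, minus strand), had 212, 220, 256, 229 and 183 CPM in farnesol, against 297, 265, 238, 260 and 273 CPM in control. The groups overlapped, since farnesol replicate 3 lay above control replicate 3. The log2 fold change was -0.28 (edgeR, adjusted p = 0.0121, SE 0.08), the same as the median of genes of at least 5092 bases, among which Ccnd2 has 6168. Under the axis covariate it was 0.03 (SE 0.04, adjusted p = 0.693) and under the slope covariate 0.13 (SE 0.07, adjusted p = 0.299), and the call was lost.

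Ccnd3, which encodes cyclin D3 (chromosome 9, 13394169 to 13489371, minus strand), had 153, 139, 131, 135 and 171 CPM in farnesol, against 108, 116, 131, 122 and 112 CPM in control. Control replicate 3 reached the level of farnesol replicate 3, so the groups overlapped in TMM-scaled CPM, although in FPKM the lowest farnesol library, at 64.3, was above the highest control library, at 63.2. Its log2 fold change was 0.31 (edgeR, adjusted p = 0.00476, SE 0.08), but 0.02 under the axis covariate and -0.07 under the slope covariate, where it was not called (adjusted p = 0.839 and adjusted p = 0.632). The annotated end of Ccnd3 overlaps Bysl on the other strand by 171 bases, and the strand setting of the counting is unknown. Bysl was at 36.1 ± 4.23 CPM in farnesol and 29.3 ± 2.56 CPM in control.

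Summed over the 3 D cyclins, FPKM was 391 ± 33.6 in farnesol and 275 ± 5.32 in control. Ccnd1 made up 72.6% ± 1.74 of this sum in farnesol and 63.8% ± 0.750 in control, with no overlap of the libraries. The share of Ccnd2 was 9.31% ± 1.85 in farnesol and 15.6% ± 1.10 in control, and that of Ccnd3 18.1% ± 0.689 and 20.6% ± 1.75 (SD, n = 5 each). The pool was thus more dominated by Ccnd1 in farnesol libraries; as a score over members it was not tested. Ccnd2 and Ccnd3 were not called under either covariate.

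**Figure D2:**
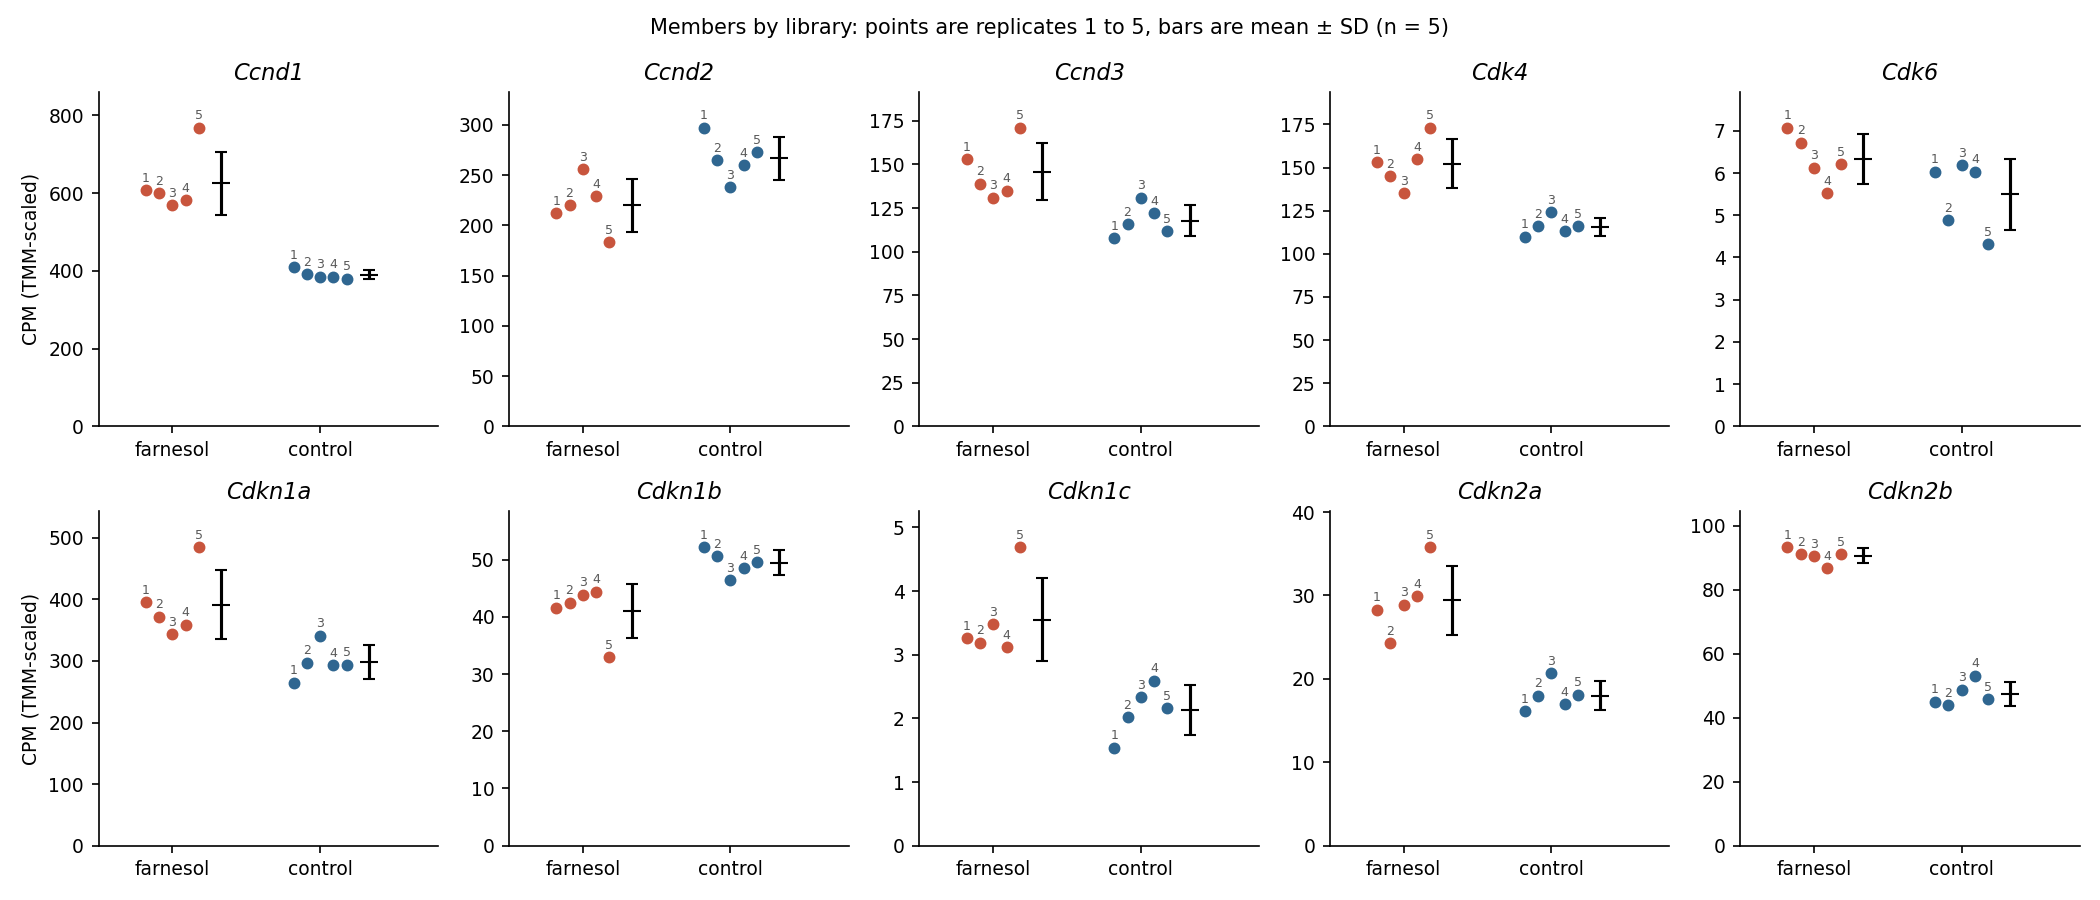
TMM-scaled CPM of each member in the 5 farnesol libraries (left) and the 5 control libraries (right); numbers are replicates and bars are mean ± SD. Farnesol replicate 5 is the highest library for Ccnd1 (768 CPM) and Cdkn1a (485 CPM) and the lowest for Ccnd2 (183 CPM) and Cdkn1b (32.9 CPM), whereas Cdkn2b lies between 86.9 and 93.4 CPM in all farnesol libraries.

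Of the kinases Cdk4 rose and Cdk6 did not pass. Cdk4, the more abundant of the pair (chromosome 7, 62883105 to 62942403, plus strand), had 153, 145, 135, 155 and 173 CPM in farnesol, against 110, 116, 124, 113 and 116 CPM in control. No control library reached the lowest farnesol library. Farnesol over control, the log2 fold change was 0.40 (edgeR, adjusted p = 0.000354, SE 0.07), while the median of genes of similar length (3572 to 5090 bases) was -0.12. It was 0.19 (SE 0.05, adjusted p = 0.00467) under the axis covariate, where it stayed called, and 0.14 (SE 0.07, adjusted p = 0.307) under the slope covariate, where it was not.

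The annotated span of Cdk4, 59299 bases with a summed gene length of 4406 bases, also covers Tspan31, Agap2 and part of Os9, so reads of Cdk4 and of these genes could have been split or shared by the counting and its value is uncertain. The length of Cdk4, and so the length range it was set beside, is uncertain too. Tspan31 was at 139 ± 9.89 CPM in farnesol and 119 ± 7.19 CPM in control (log2 fold change 0.22, SE 0.06, adjusted p = 0.00701, edgeR), and Os9 at 310 ± 35.2 CPM and 252 ± 14.9 CPM (0.30, SE 0.07, adjusted p = 0.00374), whereas Agap2 had at most 10 counts. Their part in the Cdk4 value was not tested. Cdk6, the other kinase (chromosome 4, 30646460 to 30829634, minus strand), had 7.07, 6.72, 6.13, 5.52 and 6.21 CPM in farnesol, against 6.03, 4.89, 6.19, 6.03 and 4.32 CPM in control, from 202 to 321 counts per library. The groups overlapped and the difference did not pass (log2 fold change 0.21, SE 0.12, adjusted p = 0.160, edgeR). By FPKM, Cdk4 was 12.3 ± 1.73 times Cdk6 in farnesol and 10.8 ± 1.85 times in control.

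The RefSeq promoter table (build GRCr8) held 6 of the 10 members: Ccnd3, Cdk4, Cdkn1a, Cdkn1b, Cdkn2a and Cdkn2b. Each window holds 250 bases before and 50 after a start site. The windows of Cdk4, Cdkn2a and Cdkn2b are shown because these genes bear on the main contrast among the members: Cdkn2b and Cdkn2a rose and neighbour each other, and Cdk4 rose in the fit without a covariate and under the axis covariate, but did not pass under the slope covariate. Searched on both strands were the E-box CACGTG, bound by MYC and its partners, the cyclic AMP response element TGACGTCA, the GC box GGGCGG and the E2F motif TTTNGCGC. In the window of Cdk4 (chr7:64771203-64771502, plus strand) capitals mark the E-box, which occurred 3 times, from -203, -183 and -95 relative to the start; 6.42% of all 33469 windows hold it at least once and 0.0568% at least 3 times. The window also holds 1 GC box, from -165, left in lower case.
Cdk4: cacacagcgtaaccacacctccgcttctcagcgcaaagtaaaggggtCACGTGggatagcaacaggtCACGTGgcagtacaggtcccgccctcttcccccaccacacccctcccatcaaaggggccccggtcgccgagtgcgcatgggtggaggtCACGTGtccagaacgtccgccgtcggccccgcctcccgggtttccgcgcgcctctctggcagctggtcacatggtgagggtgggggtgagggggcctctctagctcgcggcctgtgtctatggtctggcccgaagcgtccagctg
In the window of Cdkn2b (chr5:109134806-109135105, minus strand) capitals mark the cyclic AMP response element from -96, held by 1.83% of windows, and 3 GC boxes, where 33.1% of windows hold at least 1 and 8.97% at least 3.
Cdkn2b: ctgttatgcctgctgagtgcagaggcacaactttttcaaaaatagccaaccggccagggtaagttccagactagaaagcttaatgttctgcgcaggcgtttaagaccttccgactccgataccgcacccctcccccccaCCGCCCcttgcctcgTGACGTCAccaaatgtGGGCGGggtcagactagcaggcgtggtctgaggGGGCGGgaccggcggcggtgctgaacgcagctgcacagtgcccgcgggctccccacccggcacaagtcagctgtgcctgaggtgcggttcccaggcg
The window of Cdkn2a (chr5:109107907-109108206, minus strand) lies inside the annotated gene rather than at its outermost start, and holds 1 GC box in capitals, from -13.
Cdkn2a: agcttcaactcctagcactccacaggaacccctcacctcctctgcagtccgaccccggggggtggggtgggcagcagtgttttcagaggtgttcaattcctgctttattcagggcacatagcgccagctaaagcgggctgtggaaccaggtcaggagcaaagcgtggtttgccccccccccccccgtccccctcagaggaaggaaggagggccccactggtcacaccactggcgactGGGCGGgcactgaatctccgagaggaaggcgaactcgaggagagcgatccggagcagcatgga
The E2F motif was in none of the 6 windows and in 1.28% of all windows. Motifs were searched without regard to overlap with each other, and a match is a description of the letters only.

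Among the CIP/KIP inhibitors, Cdkn1a encodes p21, an inhibitor of many complexes of cyclin and kinase (chromosome 20, 7149217 to 7159585, plus strand). It had 396, 372, 344, 359 and 485 CPM in farnesol, against 265, 297, 341, 293 and 294 CPM in control. The groups did not overlap, but farnesol replicate 3 and control replicate 3 were close. The log2 fold change was 0.39 (edgeR, adjusted p = 0.00282, SE 0.09), and 0.04 (SE 0.04, adjusted p = 0.602) under the axis covariate and -0.07 (SE 0.06, adjusted p = 0.626) under the slope covariate.

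Cdkn1b encodes p27, which is abundant in resting cells and is removed through SKP2 (chromosome 4, 167760181 to 167764982, plus strand). It had 41.6, 42.5, 43.9, 44.4 and 32.9 CPM in farnesol, against 52.2, 50.6, 46.4, 48.5 and 49.6 CPM in control. Every farnesol library was below every control library, and farnesol replicate 5 was the lowest. Farnesol over control, the log2 fold change was -0.27 (edgeR, adjusted p = 0.0105, SE 0.08), against a median of 0.28 in genes of up to 1811 bases, among which Cdkn1b has 1755. With a smooth trend on gene length removed from each library it was -0.41 (adjusted p = 0.00300), in a fit that called 56.6% of all genes. The call was lost under the axis covariate (-0.01, adjusted p = 0.943) and under the slope covariate (0.06, adjusted p = 0.826).

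Cdkn1c encodes p57, an imprinted gene expressed from the maternal copy (chromosome 1, 198655407 to 198658048, minus strand). It was low, at 3.26, 3.19, 3.48, 3.12 and 4.69 CPM in farnesol, against 1.54, 2.02, 2.33, 2.59 and 2.16 CPM in control, from 133 to 208 counts in farnesol and 69 to 114 counts in control. All farnesol libraries were above all control libraries. The log2 fold change was 0.74 (edgeR, adjusted p = 0.00233, SE 0.17). It was 0.31 under the axis covariate and 0.11 under the slope covariate, with SEs of 0.22 and 0.27, and neither passed (adjusted p = 0.371 and adjusted p = 0.893).

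The INK4 inhibitors Cdkn2a and Cdkn2b lie next to each other on chromosome 5 with 7530 bases between them, both on the minus strand. Cdkn2b, which encodes p15 and is known as a gene that TGF-beta induces (104010680 to 104019050), had 93.4, 91.2, 90.6, 86.9 and 91.1 CPM in farnesol, against 45.0, 44.0, 48.8, 53.2 and 45.9 CPM in control. The groups were far apart, and within farnesol the libraries varied by 2.60% (coefficient of variation), against 9.28% to 18.4% for the other 9 members. For Ccnd1 and Cdkn1b much of that contrast rested on farnesol replicate 5. Ccnd1 was at 768 CPM there and at 569 to 607 CPM in the other farnesol libraries. Cdkn1b was at 32.9 CPM there, against 41.6 to 44.4 CPM in the others. Outside replicate 5 Cdkn2b ran from 86.9 to 93.4 CPM, so Ccnd1 and Cdkn1b were about as even as Cdkn2b. In control the coefficient of variation of Cdkn2b was 7.83%, within the 2.97% to 18.5% of the others. Farnesol over control, the log2 fold change was 0.94 (edgeR, adjusted p = 2.25e-07, SE 0.06), and it was close to this under the axis covariate (0.87, SE 0.06, adjusted p = 3.01e-12) or the slope covariate (0.83, SE 0.09, adjusted p = 1.29e-07).

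Cdkn2a (103984949 to 104003149) encodes p16 and, from another start and reading frame, p19ARF; the table has 1 value for both, so they cannot be told apart. It had 28.3, 24.3, 28.9, 29.9 and 35.8 CPM in farnesol, against 16.1, 18.0, 20.7, 17.0 and 18.1 CPM in control. The groups did not overlap. The log2 fold change was 0.71 (edgeR, adjusted p = 0.000142, SE 0.10), 0.42 (SE 0.09, adjusted p = 0.00116) under the axis covariate and 0.32 (SE 0.12, adjusted p = 0.128) under the slope covariate, where the call was lost. Cdkn2a and Cdkn2b share a stretch of similar coding sequence, so the counting could have split some of their reads. The other INK4 genes, named after their values were seen, did not pass: Cdkn2c was at 16.0 ± 1.55 CPM in farnesol and 15.6 ± 1.09 CPM in control (log2 fold change 0.04, SE 0.08, adjusted p = 0.704, edgeR), and Cdkn2d at 14.6 ± 1.07 CPM and 14.7 ± 1.90 CPM (-0.01, SE 0.10, adjusted p = 0.905).

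Over the 5 inhibitors, summed FPKM was 255 ± 20.2 in farnesol and 190 ± 12.7 in control. Cdkn1a held 65.1% ± 2.88 of the sum in farnesol and 66.1% ± 1.70 in control, which overlapped. Cdkn2b held 14.4% ± 1.21 in farnesol and 9.99% ± 0.817 in control, Cdkn2a 10.4% ± 0.912 and 8.47% ± 0.319, and Cdkn1b 9.36% ± 1.77 and 14.9% ± 1.57, and in none of these 3 did the groups overlap. The makeup of the inhibitors was thus tilted from Cdkn1b towards the INK4 genes in farnesol libraries. As a score over members it was not tested and was set against no other genes. Of the genes in this tilt, Cdkn1b was not called under either covariate, and Cdkn2a was not called under the slope covariate.

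**Figure D3:**
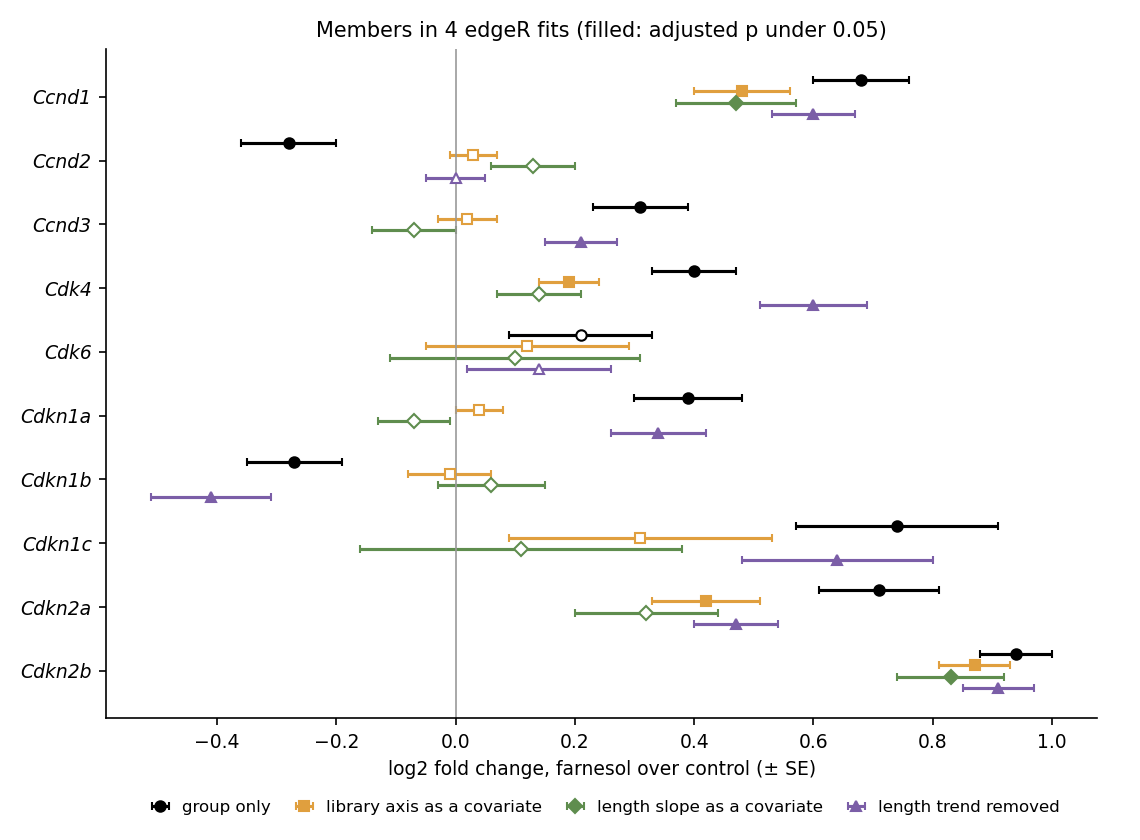
Log2 fold change, farnesol over control, with SE (bars), of each member in 4 edgeR fits; filled symbols have an adjusted p under 0.05. Cdkn2b stays between 0.83 and 0.94 and Ccnd1 between 0.47 and 0.68 in all 4 fits, whereas Cdkn1a is at 0.39 with group only and at -0.07 under the slope covariate.

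The members fell apart by how they followed the library axis. Farnesol replicate 3 (score -0.074) and control replicate 3 (score 4.06) were the closest pair across the groups on it, and their values are set side by side, as 1 library a group, without a test. Cdkn2b had 90.6 CPM in farnesol replicate 3 and 48.8 CPM in control replicate 3, and Ccnd1 569 and 385 CPM. Cdkn2a, at 28.9 and 20.7 CPM, and Cdkn1c, at 3.48 and 2.33 CPM, were also apart. By contrast Cdkn1a had 344 CPM in farnesol replicate 3 and 341 CPM in control replicate 3, Ccnd3 131 CPM in both, Ccnd2 256 and 238 CPM, and Cdkn1b 43.9 and 46.4 CPM. Cdk4 lay between, at 135 and 124 CPM. Thus for Cdkn1a, Ccnd3 and Ccnd2 these libraries did not show the difference of the group means. The score was computed from the same expression values, so a gene that follows the axis differs little in a pair with close scores. The pair is therefore no check apart from the fit with the axis covariate.

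**Figure D4:**
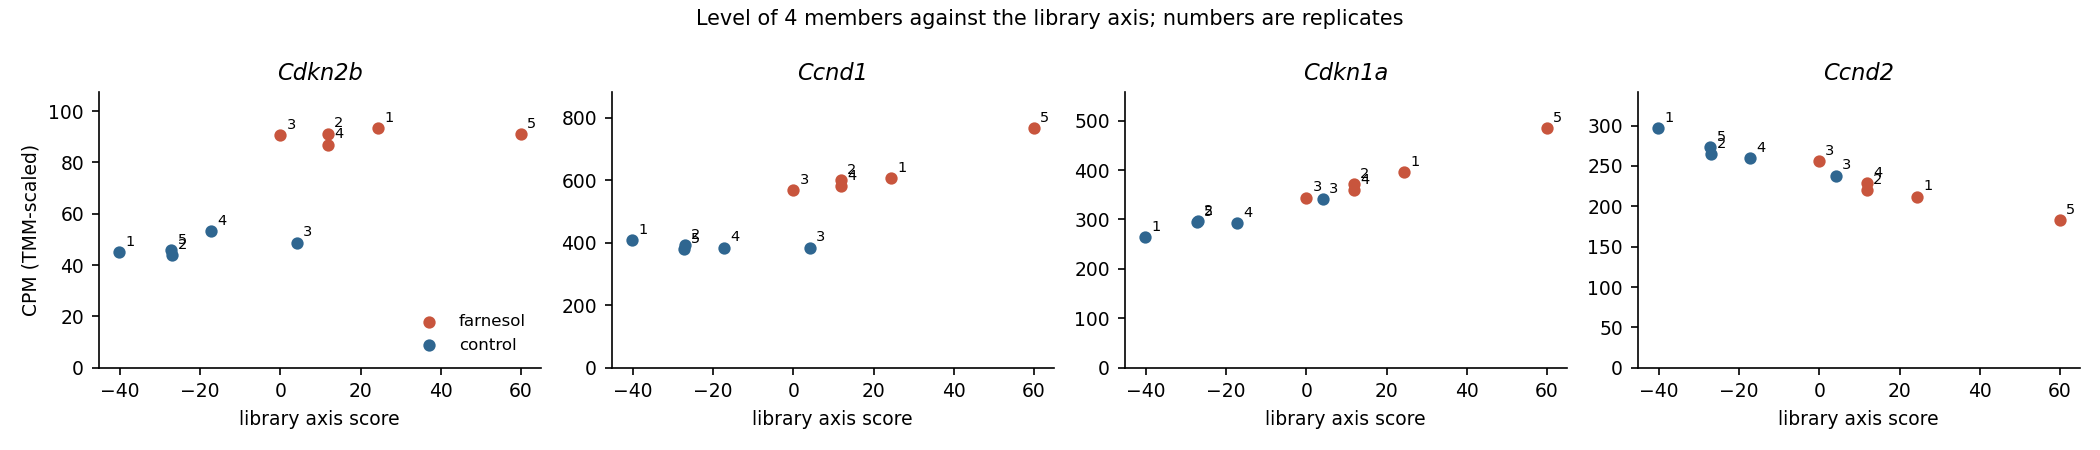
TMM-scaled CPM of 4 members against the library axis score; red points are farnesol and blue points control libraries, numbered by replicate. Replicates 3 of both groups lie closest together in score, at 90.6 CPM of Cdkn2b in farnesol and 48.8 CPM in control; Cdkn1a and Ccnd2 follow the score across both groups.

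Set against genes of their own length, the members also differed. All 6 members of 1812 to 2636 bases lay above the median log2 fold change of genes of that length, 0.15. Cdkn2b (2491 bases), Cdkn1c (2042 bases) and Ccnd1 (2208 bases) were at 0.94, 0.74 and 0.68, and Cdkn1a, Ccnd3 and Cdk6 at 0.39, 0.31 and 0.21. Cdkn2a (1111 bases) was at 0.71, beside a median of 0.28 in genes of up to 1811 bases. Cdk4 and Cdkn1b stood on the other side of 0 from the median of their length range, at 0.40 beside -0.12 and at -0.27 beside 0.28. For Cdk4 that range rests on a length of 4406 bases from an annotated span that also covers other genes, so it is uncertain.

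**Figure D5:**
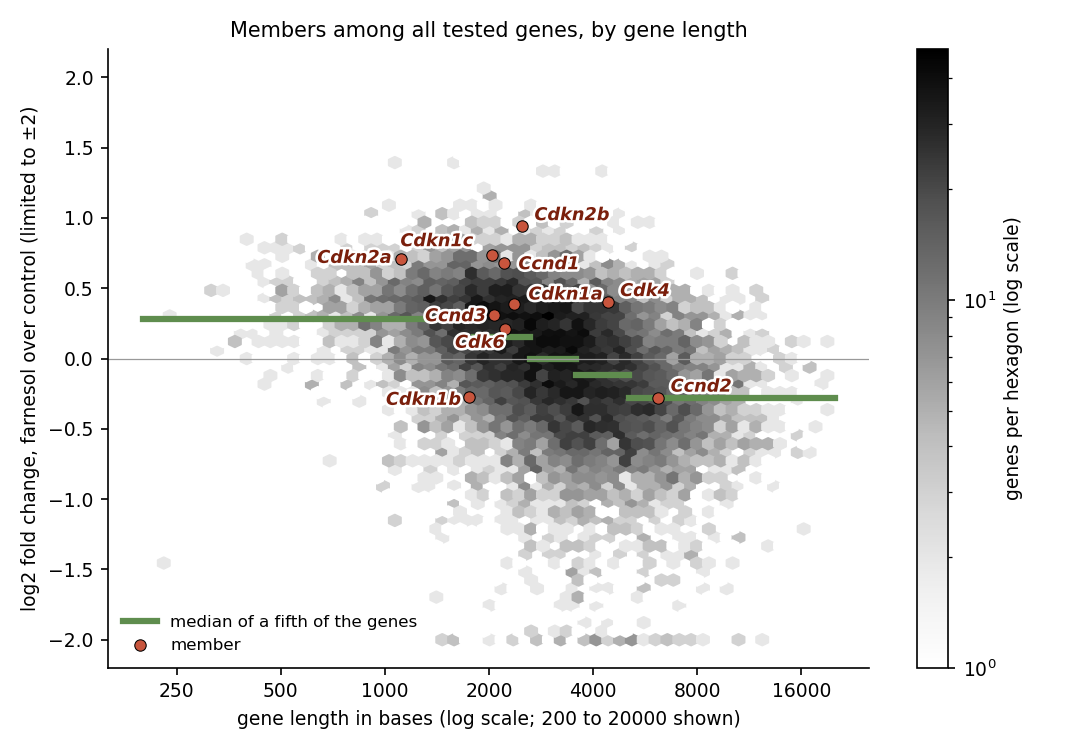
Log2 fold change, farnesol over control, against gene length (log scale) for all tested genes (grey hexagons, darker for more genes), with the median of 5 equal groups of genes by length (green) and the members (red). Cdkn2b, at 0.94, lies above the bulk of genes of its length, Ccnd2 lies on the median of the longest genes, -0.28, and Cdkn1b, at -0.27, below that of the shortest, 0.28.

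The tested genes most like the 2 members with the smallest p were found by the root mean square difference of log2 CPM over the 10 libraries, after each gene's own mean was taken off. Nearest to Cdkn2b were Fabp4, a fatty acid carrier (0.036), Fdft1, the squalene synthase (0.066), and Cyp51, a lanosterol demethylase (0.087). Nearest to Ccnd1 were Fasn, the fatty acid synthase (0.054), Mknk2, a kinase of the translation factor eIF4E (0.054), and Loxl3, a lysyl oxidase (0.062). Among the members themselves the closest pairs were Ccnd3 with Cdkn1a (0.061) and Ccnd2 with Cdkn1b (0.065), and the most distant was Ccnd2 with Cdkn2b (0.633).

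Of the rest of the pathway, 10 of 12 tested Rb and E2F genes fell and 1 rose, with a median log2 fold change of -0.47. Over all tested genes 30.1% fell and 29.4% rose, with a median of 0.01, which stands beside each list below. Rb1, the substrate of CDK4 and CDK6, was at 14.4 ± 2.70 CPM in farnesol and 26.9 ± 2.98 CPM in control (1.86-fold lower). E2f8 was at 2.36 ± 0.239 CPM and 4.05 ± 0.423 CPM (1.72-fold lower) and E2f5 at 3.77 ± 0.396 CPM and 5.88 ± 0.558 CPM (1.56-fold lower), while E2f4, a repressor form, was at 26.0 ± 1.49 CPM and 19.7 ± 0.937 CPM (1.31-fold higher). Of the list, under the axis covariate 2 fell (Rb1 and E2f8) and 1 rose (E2f4), and under the slope covariate 0 passed (edgeR), the smallest adjusted p being that of E2f8 (log2 fold change -0.81, adjusted p = 0.0538). The median length of the list was 3396 bases.

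Of 13 tested later cyclins, CDKs and CDC25 phosphatases 7 fell and 1 rose (median -0.17). Ccne2, a cyclin E that acts after the D cyclins, was at 7.94 ± 1.39 CPM in farnesol and 18.0 ± 2.53 CPM in control, the gene with the smallest p of this list, and it passed under the axis covariate (log2 fold change -0.73) and the slope covariate (-0.61). The other cyclin E gene, Ccne1, named after its values were seen, did not pass (26.1 ± 2.00 CPM in farnesol and 25.2 ± 2.30 CPM in control). Ccna2, the S-phase cyclin A, was at 25.1 ± 4.38 CPM and 41.3 ± 2.24 CPM. The subunits Mnat1 and Cdk7 of the CDK-activating kinase were at 29.7 ± 3.46 and 44.7 ± 1.90 CPM in farnesol, against 37.5 ± 0.838 and 50.6 ± 1.64 CPM in control, and both fell. With the covariates 4 and 1 of the list fell and none rose.

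Of 20 genes of S phase and proliferation 10 fell and 3 rose (median -0.14). Top2a, a topoisomerase of dividing cells, was at 75.8 ± 5.40 CPM in farnesol and 122 ± 9.42 CPM in control and passed in each fit (log2 fold change -0.69, and -0.47 and -0.38 with the covariates). Mki67, which encodes the Ki-67 antigen, was at 91.8 ± 6.04 CPM and 114 ± 3.57 CPM, and Bub1, of the spindle checkpoint, at 33.6 ± 4.03 CPM and 48.1 ± 5.06 CPM. The subunits of the replicative helicase went different ways. Mcm4 fell (45.5 ± 5.61 CPM in farnesol and 60.0 ± 4.48 CPM in control), a call that ended with either covariate. The 3 genes of the list that rose, named after their values were seen, were its subunits Mcm6 (36.2 ± 0.987 CPM and 30.5 ± 1.87 CPM), Mcm7 (28.4 ± 3.64 CPM and 23.7 ± 1.93 CPM) and Mcm3 (30.7 ± 1.92 CPM and 27.5 ± 1.35 CPM), while Mcm2 and Mcm5 did not pass with group alone. Of the list, 3 (Top2a, Mki67 and Mcm5) fell under the axis covariate and 1 (Top2a) under the slope covariate, and none rose.

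Of 12 genes of the other INK4 proteins and of the turnover of D cyclins and p27, 4 rose, 2 fell and 6 did not pass (median 0.06). Fbxo31, a ubiquitin ligase subunit that targets cyclin D1, was at 14.6 ± 2.16 CPM in farnesol and 8.87 ± 1.03 CPM in control (1.65-fold higher), and Cdkn3, a phosphatase of CDKs, at 43.0 ± 4.56 CPM and 31.4 ± 2.76 CPM. Skp1 and Cul1, subunits of the SCF ligases, were lower, at 604 ± 31.1 and 103 ± 9.84 CPM in farnesol, against 720 ± 24.4 and 124 ± 5.29 CPM in control. Under the axis covariate 1 (Fbxo31) rose and 1 (Skp1) fell, and under the slope covariate 0 passed (edgeR), the smallest adjusted p being that of Skp1 (log2 fold change -0.21, adjusted p = 0.0527).

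The genes known to control transcription of the members moved both ways. Of 16 regulators of D cyclin transcription 3 rose and 9 fell (median -0.14). The median length of this list was 3842 bases, and genes of 3572 to 5090 bases had a median of -0.12. Of those genes 20.7% were called higher and 41.1% lower. Egr1, an immediate early factor, fell (15.7 ± 0.700 CPM in farnesol and 23.8 ± 0.219 CPM in control), as did the AP-1 subunits Fosl2 (18.8 ± 3.34 CPM and 42.7 ± 11.3 CPM) and Fos (1.39 ± 0.311 CPM and 2.99 ± 0.249 CPM). Their relative Fosl1 rose (16.5 ± 3.01 CPM and 13.4 ± 0.893 CPM), but its log2 fold change was 0.00 under the axis covariate and -0.04 under the slope covariate, neither called. Myc did not pass (19.4 ± 1.19 CPM and 19.7 ± 1.07 CPM). Lef1, at 2.22 ± 0.264 CPM in farnesol and 1.41 ± 0.319 CPM in control, rose with group alone and under both covariates (log2 fold change 0.66, 1.03 and 1.21). Fosl1, Lef1 and Myc were named after their values were seen. Creb1, which binds the cyclic AMP response element, was at 5.39 ± 1.44 CPM and 10.2 ± 1.69 CPM, a call that ended with either covariate. Under the axis covariate 2 rose and 5 fell, and under the slope covariate 1 (Lef1) rose and 1 (Egr1) fell. Of 22 regulators of the inhibitor genes 4 rose and 12 fell (median -0.25). This list had a median length of 3127 bases, and genes of 2637 to 3571 bases had a median of -0.00. Of those genes 28.2% were called higher and 28.9% lower. The ligands Tgfb2, at 242 ± 10.9 CPM in farnesol and 413 ± 25.5 CPM in control, and Tgfb3, at 2478 ± 110 CPM and 3552 ± 75.8 CPM, fell and passed in each fit. The ligand Tgfb1, named after its values were seen, rose (194 ± 34.2 CPM in farnesol and 126 ± 13.9 CPM in control, log2 fold change 0.62, adjusted p = 0.000531, edgeR). It stayed called under the axis covariate (0.18, adjusted p = 0.00366) but not under the slope covariate (0.06, adjusted p = 0.769). Id1, which opposes E proteins, rose (62.1 ± 5.26 CPM and 34.9 ± 3.77 CPM), also in each fit, and Klf6 fell (155 ± 4.34 CPM and 197 ± 13.5 CPM), except under the slope covariate (adjusted p = 0.0597). Of the list, under the axis covariate 3 rose and 4 fell, and under the slope covariate 1 rose and 2 fell.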

How the data were processed

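RNA was measured in 10 libraries of TDSCs, grouped by the sample titles. Per the labels, Trizol RNA went into NEBNext Ultra II libraries. Build rn7, StringTie, DESeq, HTSeq 0.9.1 and HISAT2 2.0.5 appear in the submitters' processing notes without their roles. The authors deposited read counts per gene and FPKM values in 1 table, per the file headers. Of its 23052 rows 1 was a repeat and was removed. Gene length was taken from the ratio of count to FPKM, so FPKM rests on the authors' gene models.

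The count test was edgeR 4.0.16 under R 4.3.3 (filterByExpr, TMM scaling, glmQLFit with robust dispersion, glmQLFTest; group alone in the model) over 12893 genes, with Benjamini-Hochberg adjustment at 0.05. CPM uses TMM-scaled library sizes. The SE is the log2 fold change divided by the square root of F. For the library axis, group means were taken off log2 CPM (prior count 2) and the leading component kept. For the length slope, each library's deviation from the all-library mean was regressed on log2 length. Alternatives were other size factors, no filter, DESeq2 1.42.0, limma 3.58.1 on log2(FPKM + 0.1), the replicate number as a block, both covariates, a length trend (5 degrees of freedom) removed, and each library left out. Libraries of 1 group differed from each other by more than sampling noise (chi-square per gene 3.96 to 112 over 20 pairs). The steps were tested on simulated counts.

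The members and all gene lists were chosen with earlier results of these data known. The text names all members, up to 4 genes of each of 7 pathway lists with the smallest p (a few genes, 1 list and 1 motif are not reported here), and the 3 profiles nearest to each of 2 members. Of the fixed genes, E2f1, Cks2 and Junb were not analysed here, and Ccna1, with 2 to 24 counts, was not tested.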

Additional observations from a re-analysis of the deposited data

Results flagged for a closer look

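In 20 sets of 5 libraries (10 members in 2 groups), 3 had a library far from the other 4, all 3 in farnesol replicate 5. For independent sets chance gives about 1 in 20. The members share their libraries, so these 3 are not independent, and no excess over chance is read from them. Ccnd1 was at 768 CPM there and at 569 to 607 CPM in the other farnesol libraries. Cdkn1b was at 32.9 CPM there, against 41.6 to 44.4 CPM in the others, and Cdkn1c at 4.69 CPM, against 3.12 to 3.48 CPM. Without this library the log2 fold changes, farnesol over control, were 0.60 for Ccnd1 (adjusted p = 5.90e-08, edgeR), -0.19 for Cdkn1b (adjusted p = 0.00592) and 0.62 for Cdkn1c (adjusted p = 0.00394), so the calls held. Farnesol replicate 5 also had the highest score on the library axis, 59.9; the part of the axis in these 3 values was not tested.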

How the results depend on the processing

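With other size factors, no filter on low counts, DESeq2, limma on FPKM, the replicate block or any 1 library left out, 7 members were higher, 2 lower and 1 not called, as in the fit with group only. With 1 library left out the log2 fold change of Ccnd1 ran from 0.60 to 0.71, that of Cdkn2b from 0.91 to 0.99 and that of Ccnd2 from -0.34 to -0.21. The replicate block called 6409 genes, against 7671 without it; same-numbered libraries did not deviate together (correlations -0.40 to 0.05, and 0 of 10 libraries correlated best with their own number), so the numbers were not taken as pairs. Under the axis covariate 2656 genes and 4 members were called, and under the slope covariate 976 genes and 2 members. With a length trend removed, 7300 genes and 8 members were called, 7 higher and 1 lower (Cdkn1b). Ccnd3, Cdk4, Cdkn1a, Cdkn1c and Cdkn2a stayed called there, at log2 fold changes of 0.21, 0.60, 0.34, 0.64 and 0.47. The sign turned for Ccnd2 (0.03 under the axis covariate, 0.13 under the slope covariate and 0.00 with a length trend removed), and under the slope covariate for Ccnd3 (-0.07), Cdkn1a (-0.07) and Cdkn1b (0.06); none of these values passed, and the cause was not tested. The order of levels was the same for all 10 members in TMM-scaled CPM per kilobase. Gene length came from the ratio of count to FPKM, so the order within a library could not differ and this is no separate check. Without farnesol replicate 5, an alternative added after seeing the data, 8 of 10 kept their rank in farnesol.

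Shares taken from CPM, which leaves out gene length by construction, differed. For the D cyclins they were 62.9% (Ccnd1), 22.4% (Ccnd2) and 14.7% (Ccnd3) in farnesol, and 50.4%, 34.4% and 15.2% in control. For Cdkn1a they were 70.1% in farnesol and 71.7% in control, for Cdkn1b 7.51% and 12.0%, for Cdkn2a 5.30% and 4.32%, and for Cdkn2b 16.4% and 11.4%. Depth limits mostly Cdkn1c and Cdk6, which had the fewest counts.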

Other observations

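Summed D cyclins over summed inhibitors, in FPKM, was 1.53 ± 0.0248 in farnesol and 1.46 ± 0.112 in control (SD, n = 5 each), and the libraries of both groups overlapped. D cyclins over CDK4 and CDK6 was 10.4 ± 0.503 in farnesol and 9.67 ± 0.496 in control. Of 5 ratios within families, 3 did not overlap between the groups and 2 did. No such share was taken over ratios of other genes. Of all single tested genes 19.8% lay higher in farnesol without overlap and 20.9% lower. Ccnd2, Ccnd3, Cdkn1a and Cdkn1b, which enter the 3 ratios, were not called under the axis or the slope covariate. Ccnd1 over Ccnd2 was 6.19 to 11.7 in farnesol and 3.85 to 4.53 in control, Ccnd1 over Ccnd3 3.72 to 4.20 and 2.74 to 3.56, and Cdkn1a over Cdkn1b 5.82 to 11.0 and 3.78 to 5.48, all without overlap. Cdk4 over Cdk6 was 10.9 to 14.2 in farnesol and 9.19 to 13.5 in control, and Cdkn2b over Cdkn2a 1.13 to 1.67 and 1.05 to 1.40, which overlapped.

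Of 13 genes often followed with senescence 4 rose and 8 fell (median log2 fold change -0.30). Over all tested genes 29.4% rose and 30.1% fell. Mmp3, a matrix protease, was at 786 ± 25.4 CPM in farnesol and 545 ± 5.93 CPM in control, and Lmnb1, which encodes lamin B1, at 13.0 ± 0.896 CPM and 18.4 ± 0.843 CPM. Igfbp3, an IGF-binding protein, was at 2.21 ± 0.474 CPM and 6.94 ± 0.850 CPM (3.14-fold lower). All 3 passed under both the axis and the slope covariate. Of the list, under the axis covariate 3 rose and 3 fell, and under the slope covariate 1 rose and 3 fell.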
